A study of Mus musculus with 6 samples.

Results

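The 10 genes described here encode lineage transcription factors, chosen by name as regulators of granulocyte and monocyte formation: Cebpa, Cebpb, Cebpd, Cebpe, Spi1, Gfi1, Irf8, Klf4, Id1 and Id2. All 10 were found, by symbol, among the 28987 genes of the deposited table. RNA came from bone marrow cells sorted from C57BL/6 mice whose mutant clone carries CBL and RUNX1 mutations and stands for myelodysplastic syndrome (MDS). The 6 libraries fall into 4 groups: Ly6G+ myeloid cells after Mdivi-1 (2 libraries), Ly6G+ myeloid cells after vehicle (2), hematopoietic stem and progenitor cells (HSCPs) after Mdivi-1 (1) and HSCPs after vehicle (1). The compound Mdivi-1 is known for blocking Drp1, a GTPase of mitochondrial fission. HSCPs were enriched by magnetic selection for CD117, the product of Kit, and the mutant clone was then sorted by flow cytometry. Every group therefore carries the mutations, and no unmutated cells serve as a reference. The labels state no dose, duration or age, nor how the alleles were built. Marrow was taken from individual mice, but no library is tied to one by its label. The p-values below therefore reflect only how far these libraries differ, which may be technical.

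These factors decide together which myeloid cell a progenitor becomes. The C/EBP proteins are basic leucine zipper factors that pair with one another on DNA. PU.1, encoded by Spi1, is an ETS factor needed in granulocyte and monocyte formation. GFI1 is a zinc finger repressor that favours neutrophils, whereas IRF8 and KLF4 favour monocytes and, for IRF8, dendritic cells. ID1 and ID2 lack a DNA-binding region and hold E proteins, the partners of many helix-loop-helix factors, away from DNA.

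Promoter windows from RefSeq, on the GRCm38.p6 build, were available for 6 of the 10 genes (Cebpa, Cebpb, Gfi1, Irf8, Klf4 and Id2), each covering 250 bases before and 50 bases from the annotated start. The windows printed are those of Id2 and Irf8, the members called under treatment that have one, and those of Gfi1 and Cebpa, the members with the largest falls between populations. Capitals mark matches to the letters given after them.
Id2, chr12:25096043-25096342, minus strand: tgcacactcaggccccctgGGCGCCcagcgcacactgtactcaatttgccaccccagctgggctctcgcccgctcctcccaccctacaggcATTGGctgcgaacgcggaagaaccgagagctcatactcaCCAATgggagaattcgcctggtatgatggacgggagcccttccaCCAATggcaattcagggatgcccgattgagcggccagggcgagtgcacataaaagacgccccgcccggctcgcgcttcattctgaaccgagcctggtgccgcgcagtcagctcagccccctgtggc
Irf8, chr8:120736108-120736407, plus strand: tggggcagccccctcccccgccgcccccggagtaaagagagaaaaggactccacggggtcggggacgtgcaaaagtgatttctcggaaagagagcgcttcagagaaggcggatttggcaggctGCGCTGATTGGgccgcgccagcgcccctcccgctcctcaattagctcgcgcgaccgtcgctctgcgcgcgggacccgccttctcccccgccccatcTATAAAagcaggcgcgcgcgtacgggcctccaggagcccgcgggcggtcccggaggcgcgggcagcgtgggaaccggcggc
Gfi1, chr5:107725756-107726055, minus strand: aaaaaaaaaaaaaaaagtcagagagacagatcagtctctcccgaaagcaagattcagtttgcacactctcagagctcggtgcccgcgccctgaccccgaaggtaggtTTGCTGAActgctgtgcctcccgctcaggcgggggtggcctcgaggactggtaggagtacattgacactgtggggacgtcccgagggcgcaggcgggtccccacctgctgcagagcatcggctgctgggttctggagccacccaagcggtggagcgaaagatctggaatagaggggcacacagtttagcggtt
Cebpa, chr7:35119043-35119342, plus strand: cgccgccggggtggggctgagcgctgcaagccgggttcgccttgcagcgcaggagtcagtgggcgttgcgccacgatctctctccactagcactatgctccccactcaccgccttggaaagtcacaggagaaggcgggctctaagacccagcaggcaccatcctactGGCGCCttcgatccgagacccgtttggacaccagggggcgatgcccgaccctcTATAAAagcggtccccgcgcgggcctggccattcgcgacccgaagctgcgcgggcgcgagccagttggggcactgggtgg
Both strands were searched for a TATA box (TATAAA, present in 13.6% of 32851 RefSeq windows of this length), a CCAAT box (CCAAT, 37.4%), a C/EBP pattern (TTGCNNAA, 10.8%), a PU.1 core (GAGGAA, 28.3%), an IRF pattern (GAAA, any 2 bases, GAAA, in 3.4%), a GFI1 pattern (AATCNNNGC, 10.3%), a BMP-SMAD pattern (GGCGCC, 11.9%) and a cAMP response element (TGACGTCA, 1.8%). An E-box (CANNTG, 72.3%) and a KLF pattern (CCACCC, 31.5%) were searched too but are left in lower case. With the start base counted as 0, TATAAA began at -30 in Cebpa and at -31 in Irf8, and was not among these letters in Id2 or Gfi1. Id2 held 3 matches to CCAAT, at -159, -120 and -76, and 1 match to GGCGCC at -231. Gfi1 held TTGCTGAA at -143, a match to the C/EBP pattern. Irf8 held a match to the GFI1 pattern at -127, read on the opposite strand, which shares 3 letters with a CCAAT match at -121. Cebpa held GGCGCC at -83. Gfi1 and Irf8 each had another window, at chr5:107724294-107724593 and chr8:120738389-120738688. Those windows are not printed and held no match to any pattern shown in capitals. These matches describe letters only, and binding was not measured.

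The sorts carried the markers they were made on. Kit stood at 9.52 and 8.73 TPM in Ly6G+ Mdivi-1, 10.4 and 14.1 TPM in Ly6G+ vehicle, 64.9 TPM in HSCP Mdivi-1 and 72.2 TPM in HSCP vehicle. Ly6g stood at 791 and 642 TPM in Ly6G+ Mdivi-1, 814 and 840 TPM in Ly6G+ vehicle, 90.1 TPM in HSCP Mdivi-1 and 187 TPM in HSCP vehicle. TPM, the abundance unit of the table, gives length-corrected shares of all transcripts, so that levels of different genes can be set side by side. The number of genes at 1 TPM or more ran from 11456 to 11930 over the libraries. Read totals are not kept by TPM, so the depth behind each value is unknown. In bulk RNA, fewer cells of a type and less RNA per cell cannot be told apart.

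All 10 factors were expressed in every library, and Spi1 led in each of them. In Ly6G+ vehicle libraries the order by mean was Spi1 (472.7 TPM), Cebpe (306 TPM), Cebpd (269 TPM), Id2 (158 TPM), Cebpb (149.972 TPM), Irf8 (103 TPM), Id1 (35.6 TPM), Cebpa (27.9 TPM), Gfi1 (18.7 TPM) and Klf4 (18.0 TPM). The neighbours Cebpe and Cebpd, Id2 and Cebpb, and Gfi1 and Klf4 overlapped in range there. In Ly6G+ Mdivi-1 libraries Id2 was second at 314 TPM, after Spi1 at 469 TPM and ahead of Cebpb at 209 TPM, Cebpd at 202 TPM and Cebpe at 184 TPM. Cebpb and Cebpd, and Cebpd and Cebpe, overlapped in range, while Id2 was apart from both of its neighbours. In HSCPs over both treatments the order began with Spi1 (269.5 TPM), Cebpe (219 TPM), Irf8 (143 TPM) and Cebpd (140.042 TPM), with Irf8 and Cebpd overlapping, and ended with Klf4 (8.47 TPM).

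**Figure D1:**
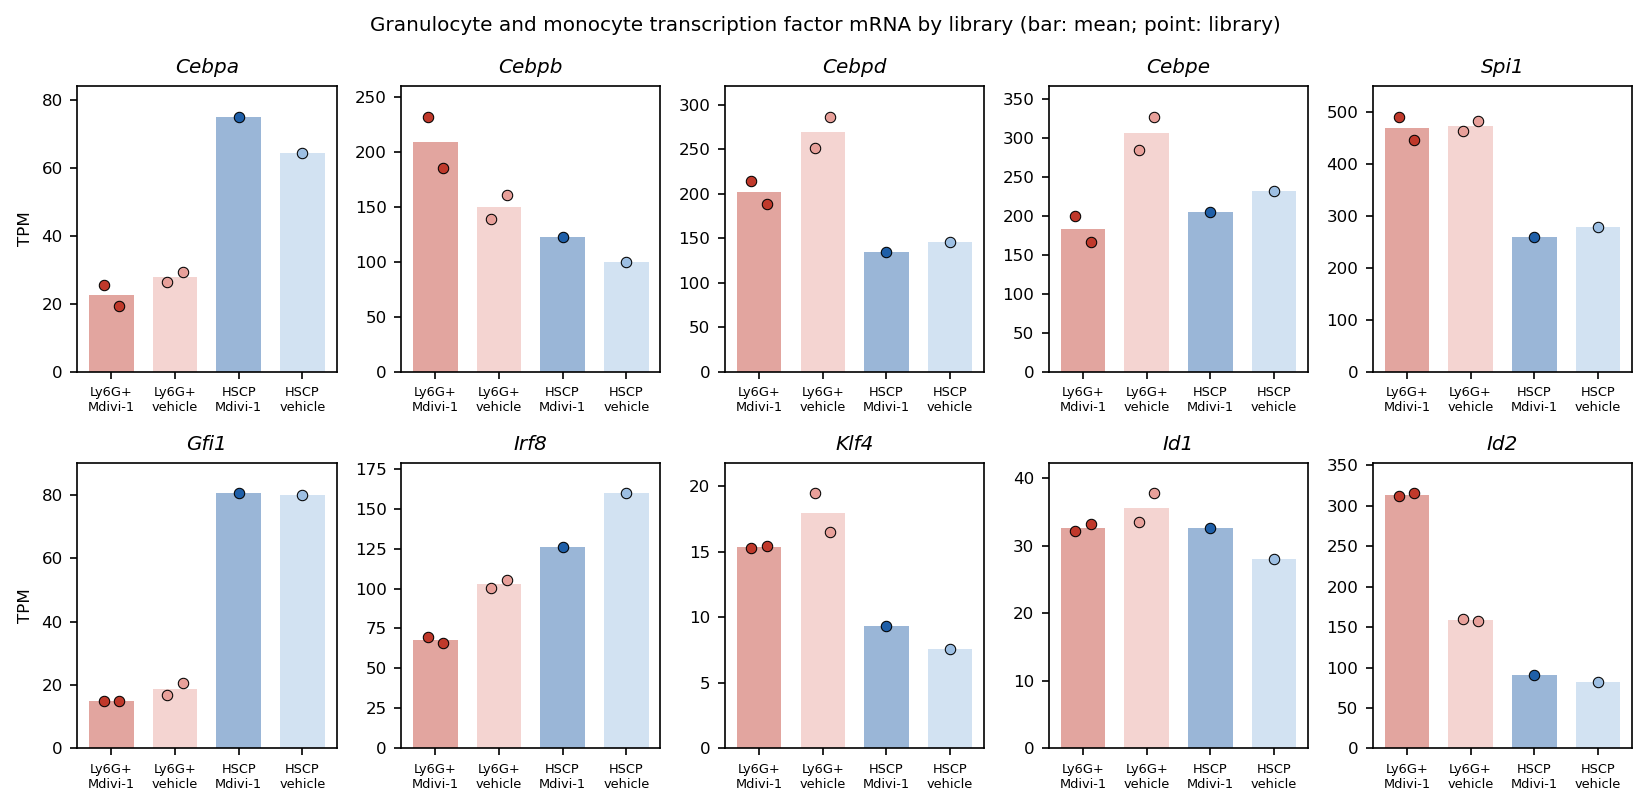
TPM (vertical axes, each from 0) of the 10 factors in Ly6G+ Mdivi-1, Ly6G+ vehicle, HSCP Mdivi-1 and HSCP vehicle libraries, with points for libraries and bars for means. Id2 stands at 312 and 316 TPM in the Ly6G+ Mdivi-1 libraries against 160 and 157 TPM in Ly6G+ vehicle, and Gfi1 is lower in all 4 Ly6G+ libraries than in both HSCP libraries.

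The first comparison asks what Mdivi-1 altered in mutant Ly6G+ cells. Id2 rose, and Irf8 and Cebpe fell, while the other 7 factors did not pass the test. Of the 10 factors 3 were called, against a background of 6.7% of the 11775 genes tested (limma on log2(TPM + 1), Benjamini-Hochberg adjusted p under 0.05). By direction, 1 of 10 was higher where 2.46% of all genes were, and 2 of 10 were lower where 4.24% of all genes were. Of all calls 36.8% were higher on TPM as deposited, against 51.8% with median-of-ratios and 50.3% with upper-quartile scaling. The median log2 change was -0.25 over the 10 factors and -0.05 over all genes tested. An unadjusted p under 0.05 was reached by 6 of the 10. The arms did not overlap for 9 of the 10 factors, a state shared by 57.7% of all genes tested.

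Id2 (ENSMUSG00000020644, chromosome 12, 25093799 to 25097140, mm10) had 312 and 316 TPM in Ly6G+ Mdivi-1, against 160 and 157 TPM in Ly6G+ vehicle. Both Mdivi-1 libraries were far above both vehicle libraries, and the arms were tight. The means were 314 ± 2.63 TPM with Mdivi-1 and 158 ± 1.76 TPM with vehicle (SD, n = 2 each), 1.98-fold higher. The log2 change was 0.98 with SE 0.05 (95% interval 0.86 to 1.11, limma adjusted p = 0.00357), and it ranked 15th by p among all genes tested. The call was lost without vehicle replicate 2, at nearly the same size (0.97, limma adjusted p = 0.0536). The other ID gene, Id1 (chromosome 2, 152736251 to 152737410), had 32.2 and 33.2 TPM with Mdivi-1, against 33.5 and 37.8 TPM with vehicle. Its log2 change was -0.12 (limma adjusted p = 0.425). The ratio of Id2 to Id1 was 9.70 and 9.51 in the Mdivi-1 libraries and 4.77 and 4.16 in the vehicle libraries. Such a ratio within a library does not depend on scaling, but an exact two-sided permutation test of 2 against 2 libraries cannot go below p = 0.333, the value it gave.

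Irf8, the regulator of monocyte and dendritic cell fate (ENSMUSG00000041515, chromosome 8, 120736358 to 120756694), had 69.9 and 66.1 TPM in Ly6G+ Mdivi-1, against 101 and 106 TPM in Ly6G+ vehicle. Both Mdivi-1 values lay below both vehicle values. The means were 68.0 ± 2.70 TPM and 103 ± 3.53 TPM (Mdivi-1 and vehicle, SD, n = 2 each), with a log2 change of -0.59, SE 0.06 (limma adjusted p = 0.0134). The call was lost without vehicle replicate 1 (-0.63, limma adjusted p = 0.0897), without vehicle replicate 2 (-0.56, limma adjusted p = 0.115) and without Mdivi-1 replicate 2 (-0.55, limma adjusted p = 0.0605). Markers of other cells moved in the same libraries. The summed level of 10 dendritic cell markers was 418 and 417 TPM with Mdivi-1 and 732 and 782 TPM with vehicle, and of the 8 tested 5 fell: Cd209a, Cd74, H2-Aa, H2-Ab1 and Bst2. Most of that sum came from Cd74 (183 and 185 TPM with Mdivi-1, 343 and 380 TPM with vehicle), H2-Aa, H2-Ab1 and Bst2. The 3 that did not pass were Siglech (-0.30, limma adjusted p = 0.426), Clec9a (-0.40, limma adjusted p = 0.181) and Flt3 (-0.09, limma adjusted p = 0.658). Xcr1 and Ccr9 were too low to be tested. The sum of 10 B cell markers was 23.6 and 24.5 TPM with Mdivi-1 and 146 and 148 TPM with vehicle, with 9 of 10 lower. The sum of 10 monocyte markers was 1931 and 1962 TPM with Mdivi-1 and 2176 and 2148 TPM with vehicle, with 3 higher and 1 lower. The 1 lower was Ly6c2, the largest part of that sum, at 944 and 933 TPM with Mdivi-1, against 1269 and 1269 TPM with vehicle. The 3 higher were Cd14, Adgre4 and F13a1, the last at 334 and 355 TPM with Mdivi-1, against 260 and 260 TPM with vehicle. None of these lists held a gene at 0 in every library, and their part in the Irf8 result was not tested. The Irf8 locus lies within the longer annotated gene Gm20388 on the same strand, listed at 6.93 and 15.1 TPM with Mdivi-1 and 16.1 and 10.7 TPM with vehicle.

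Klf4, which acts downstream in monocyte formation (chromosome 4, 55527143 to 55532466), had 15.3 and 15.4 TPM with Mdivi-1, against 19.5 and 16.5 TPM with vehicle. Its log2 change of -0.21 did not pass (limma adjusted p = 0.277). Spi1 (chromosome 2, 91082390 to 91115756) had 491 and 447 TPM with Mdivi-1, against 463 and 483 TPM with vehicle. It was the one factor whose arms overlapped. Its log2 change was -0.01 with a 95% interval from -0.18 to 0.15 (limma adjusted p = 0.925), and its sign turned under both other scalings (0.05). The ratio of Irf8 to Spi1 was 0.142 and 0.148 in the Mdivi-1 libraries and 0.217 and 0.219 in the vehicle libraries.

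Of the 4 C/EBP genes Cebpe fell, and Cebpa, Cebpb and Cebpd did not pass. Cebpe, whose product is required for secondary granule genes (ENSMUSG00000052435, chromosome 14, 54710360 to 54712174), had 201 and 167 TPM in Ly6G+ Mdivi-1, against 285 and 328 TPM in Ly6G+ vehicle. Both Mdivi-1 libraries were lower than both vehicle libraries. The means were 184 ± 23.8 TPM with Mdivi-1 and 306 ± 30.3 TPM with vehicle (SD, n = 2 each), 0.60 of the vehicle level. The log2 change was -0.74, SE 0.11 (limma adjusted p = 0.0335). Its call was lost without vehicle replicate 1 (-0.84, limma adjusted p = 0.117), without vehicle replicate 2 (-0.64, limma adjusted p = 0.168), without Mdivi-1 replicate 2 (-0.60, limma adjusted p = 0.0868), without an expression filter (limma adjusted p = 0.0926), with a constant prior (limma adjusted p = 0.0816) and with the replicate number as a block (limma adjusted p = 0.0740). The summed level of 11 neutrophil markers was 256308 and 266429 TPM with Mdivi-1 and 266713 and 257845 TPM with vehicle, so it overlapped between arms. Most of that sum was S100a8 (108631 and 116184 TPM with Mdivi-1, 118363 and 103063 TPM with vehicle) and S100a9, which did not pass. S100a9 had 84643 and 88864 TPM with Mdivi-1, against 86547 and 89553 TPM with vehicle. Of the 11 markers 4 rose: Cxcr2 (0.76), Csf3r (0.54), Retnlg (0.51) and Mmp8 (0.30). The 3 that fell were Camp (-0.655), Ngp (-0.525) and Ltf (-0.503). Their part in the Cebpe result was not tested. The sum of 10 stem and progenitor markers was 142 and 139.602 TPM with Mdivi-1 and 177 and 167 TPM with vehicle.

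Cebpb, a factor of emergency granulopoiesis (chromosome 2, 167688915 to 167690418), had 232 and 185 TPM with Mdivi-1, against 139 and 161 TPM with vehicle. The Mdivi-1 libraries were higher without overlap, yet the log2 change of 0.47 (95% interval 0.14 to 0.80) did not pass (limma adjusted p = 0.105). The gene overlaps Tmem189 on the opposite strand, 80.4% of its 31-base words occur in no other gene, and the strand of the reads is not stated. Tmem189 was listed at 50.0088 and 36.9 TPM with Mdivi-1 and 48.9 and 48.6 TPM with vehicle. Cebpd, induced late in granulopoiesis and in inflammation (chromosome 16, 15887286 to 15891031), had 214 and 189 TPM with Mdivi-1, against 251 and 287 TPM with vehicle. Its log2 change of -0.41 did not pass (limma adjusted p = 0.0731), and it overlaps Spidr on the opposite strand. Cebpa, which opens the granulocyte and monocyte path in progenitors (chromosome 7, 35119293 to 35121928), had 25.6 and 19.5 TPM with Mdivi-1, against 26.4 and 29.4 TPM with vehicle (log2 change -0.31, limma adjusted p = 0.258). Gfi1 (chromosome 5, 107716657 to 107726036) had 14.8 and 15.1 TPM with Mdivi-1, against 16.8 and 20.5 TPM with vehicle (log2 change -0.29, limma adjusted p = 0.188).

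**Figure D2:**
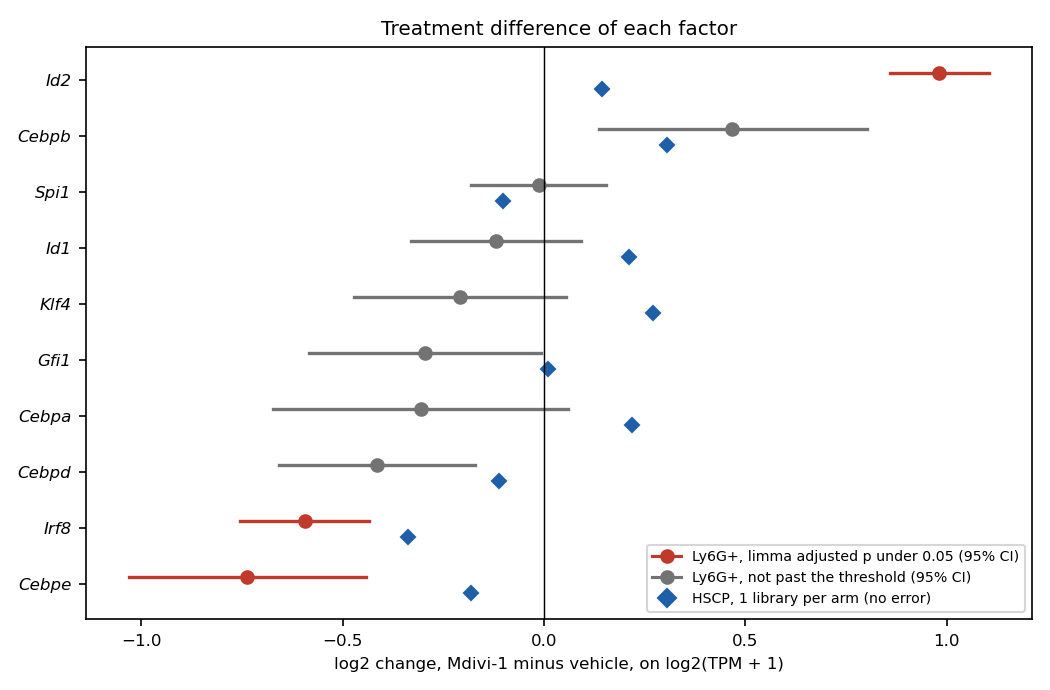
Log2 change, Mdivi-1 minus vehicle, on log2(TPM + 1) for each factor in Ly6G+ cells (circles with 95% intervals, red where limma's adjusted p was under 0.05) and in HSCPs (diamonds, 1 library per arm and no error). Id2 stands at 0.98 in Ly6G+ and 0.14 in HSCPs, and Cebpe and Irf8 lie below 0 in both populations.

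The share of each C/EBP gene in their summed mRNA is given as a description. Summed TPM of the 4 C/EBP genes was 673 and 560.464 with Mdivi-1, against 702 and 804 with vehicle. Cebpb held 34.5% and 33.0% of that sum in the Mdivi-1 libraries, against 19.87% and 19.97% in the vehicle libraries. Cebpe held 29.8% in each Mdivi-1 library, against 40.6% and 40.7% in the vehicle libraries. Cebpd held 31.9% and 33.7% with Mdivi-1, against 35.8% and 35.6% with vehicle, and Cebpa held 3.80% and 3.48% with Mdivi-1, against 3.76% and 3.65% with vehicle. The ratio of Cebpb to Cebpe was 1.16 and 1.11 in the Mdivi-1 libraries, against 0.490 and 0.490 in the vehicle libraries, a log2 difference of 1.21 (exact two-sided permutation p = 0.333, the smallest this design allows). In HSCPs the same ratio was 0.60 with Mdivi-1 and 0.427 with vehicle. These shares were computed after the levels had been seen.

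**Figure D3:**
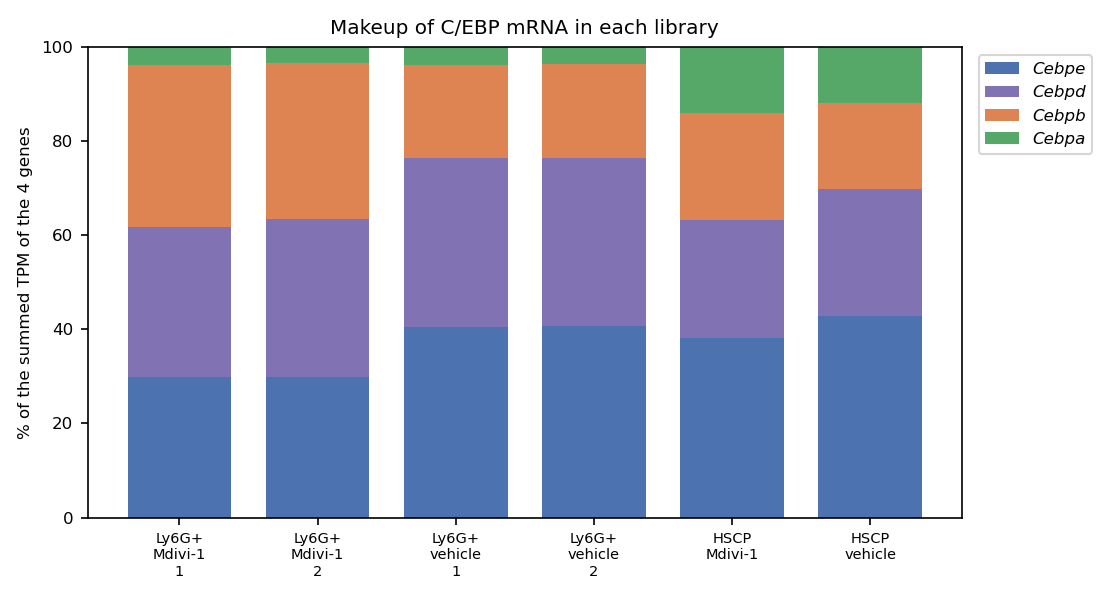
Share (%, vertical axis) of the summed TPM of Cebpa, Cebpb, Cebpd and Cebpe held by each gene in the 6 libraries. Cebpb holds 34.5% and 33.0% in the Ly6G+ Mdivi-1 libraries and 19.87% and 19.97% in the Ly6G+ vehicle libraries, and Cebpa holds 14.0% and 11.9% in the HSCP Mdivi-1 and HSCP vehicle libraries.

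Genes listed around targets, relatives and partners of these factors were counted in the same test. The counts in this and the following paragraphs stand against 2.46% of all genes tested higher and 4.24% lower. Of 14 genes of secondary granules and their stage, a list that includes known targets of C/EBPε, 7 fell, 3 rose and 4 did not pass (median -0.33, against -0.05 over all genes). Whether the Cebpe fall had a part in these changes was not tested. The ficolin gene Fcnb fell by 0.87 (limma adjusted p = 0.00449). The cathelicidin gene Camp fell by 0.65 (limma adjusted p = 0.0134) and the granule gene Ngp by 0.52 (limma adjusted p = 0.0232). The members that rose were haptoglobin Hp (0.61), the collagenase Mmp8 (0.30) and the chitinase-like Chil3 (0.30, limma adjusted p = 0.0499). For Chil3 58.5% of the 31-base words are unique. The fall of Cd177 was lost under both other scalings (limma adjusted p = 0.0744 with median-of-ratios and 0.0767 with upper-quartile scaling). Of 10 early granule and receptor genes, known targets of C/EBPα and PU.1, 1 rose and 9 did not pass (median 0.04). The riser was Csf3r, the G-CSF receptor gene (0.54, limma adjusted p = 0.0163), with 593 and 542 TPM with Mdivi-1, against 385 and 392.5 TPM with vehicle. For Csf3r 76.9% of the 31-base words are unique. Mpo, Prtn3 and Elane had log2 changes of 0.07, 0.00 and -0.06, and limma adjusted p = 0.438, 0.999 and 0.532. Csf2rb (0.26, limma adjusted p = 0.0729) was called higher under both other scalings (limma adjusted p = 0.0374 with median-of-ratios and 0.0370 with upper-quartile scaling).

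Of 15 tested monocyte and dendritic genes outside the 10 factors, 2 rose, 4 fell and 9 did not pass (median -0.22). Cd14, the lipopolysaccharide co-receptor gene, had 34.5 and 30.5 TPM with Mdivi-1, against 11.7 and 9.70 TPM with vehicle (log2 change 1.52, limma adjusted p = 0.00645). F13a1, a coagulation factor gene of monocytes, rose by 0.40. The class II genes Cd74 (-0.97), H2-Aa (-0.84) and H2-Ab1 (-0.79) fell, as did the monocyte antigen gene Ly6c2 (-0.43). Cd74, H2-Aa and H2-Ab1 are also 3 of the dendritic cell markers counted above. Of 7 tested genes described as repressed by GFI1, other than the 10 factors, only the EGR corepressor gene Nab2 was called. It had 32.1 and 29.7 TPM with Mdivi-1, against 3.91 and 3.77 TPM with vehicle (log2 change 2.72, limma adjusted p = 0.00188), and 62.1% of its 31-base words are unique. Csf1r (-0.06), E2f6 (0.20) and Gfi1b (-1.01) did not pass, at limma adjusted p = 0.483, 0.242 and 0.368. Of 8 tested E protein and BMP pathway genes 1 fell, the E protein gene Tcf3, whose product ID proteins bind. Tcf3 had 29.7 and 30.2 TPM with Mdivi-1, against 42.5 and 47.0 TPM with vehicle (log2 change -0.56, limma adjusted p = 0.0232). The E protein gene Tcf12 (-0.10, limma adjusted p = 0.513), the BMP receptor gene Bmpr2 (0.23, limma adjusted p = 0.176) and Smad1 (0.08, limma adjusted p = 0.687) did not pass.

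Among 17 tested relatives of the 10 factors, 2 rose, 3 fell and 12 did not pass (median -0.07). The Krüppel-like factor genes Klf13 (0.51) and Klf6 (0.41) rose, where Klf4 did not pass. The ETS relative Spib (-1.25) and the interferon regulatory factor genes Irf4 (-0.91) and Irf7 (-0.52) fell beside Irf8. Spib, known for B cells and plasmacytoid dendritic cells, was at 0.741 and 0.933 TPM with Mdivi-1, against 3.55 and 3.20 TPM with vehicle. Irf4 was at 0.939 and 0.931 TPM with Mdivi-1, against 2.66 and 2.61 TPM with vehicle. Id3, another ID gene and one picked after its values were seen, stood at -0.93 and did not pass (limma adjusted p = 0.0602). Of 26 tested partners and regulators 3 rose and 3 fell (median 0.01), where 2.46% of all genes tested rose and 4.24% fell. Trib1, a pseudokinase gene whose product promotes breakdown of C/EBPα (0.65), the MYC antagonist Mxd1 (0.45) and Stat3 (0.33) rose. Jun (-0.75), Tcf3 and the ETS gene Erg (-0.53) fell, and the call of Erg was lost when scaled by median of ratios (limma adjusted p = 0.0511). Nfil3 (0.55, limma adjusted p = 0.0502) was called higher under both other scalings (limma adjusted p = 0.0344 with median-of-ratios and 0.0342 with upper-quartile scaling). Runx1 did not pass (-0.13, limma adjusted p = 0.457), and whether its values include transcripts of the mutant RUNX1 is not stated.

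**Figure D4:**
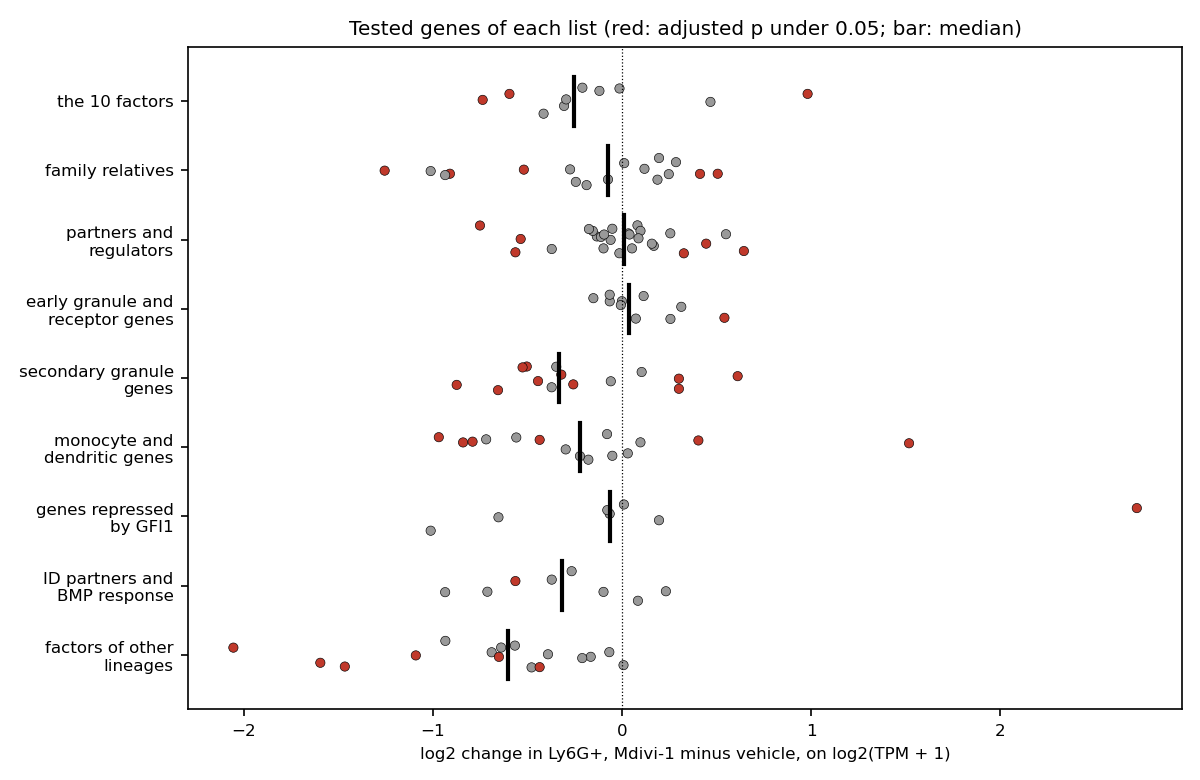
Log2 change in Ly6G+ cells, Mdivi-1 minus vehicle, on log2(TPM + 1), for each tested gene of 9 lists (points, red where limma's adjusted p was under 0.05) with the list median as a bar. The median is -0.25 for the 10 factors, -0.33 for secondary granule genes and -0.60 for factors of other lineages, while all genes tested have a median of -0.05.

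Over the 6 libraries, the genes whose levels followed each factor most closely were sought among 4023 genes with a mean of at least 5 TPM and a spread of at least 1 on the log2 scale. These correlations are a description of 6 libraries from 2 populations, whose points share those libraries. Cebpd was followed most closely by the granule gene Ngp (Pearson's r = 0.996), and Cebpe by 9030619P08Rik (r = 0.9979) and then the B cell receptor gene Cd79a (r = 0.9722). Irf8 was followed by the progenitor factor gene Gata2 (r = 0.9977) and the megakaryocyte integrin gene Itga2b (r = 0.9971). Id2 was followed by Tbc1d14 (r = 0.9985), Wfdc17 (r = 0.9977) and the metalloreductase gene Steap4 (r = 0.9963), and Gfi1 by Setd1a (r = 0.9997). Spi1 was followed by Dpysl5, Lrrc25 and Klf3, each with r = 0.9985. By log2 change within the Ly6G+ libraries, the closest to Id2 were Gm5483 (0.98), 1700071M16Rik (0.98) and the metallothionein gene Mt1 (0.98). Id1 had the smallest spread of the 10, at 0.42 on the log2 scale, and the lowest leading r, at 0.9474 with D17H6S53E.

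The second comparison asks what Mdivi-1 altered in HSCPs, where each arm is 1 library and no test is possible. No factor reached a log2 ratio of 1 in size, a mark passed by 0.927% of the 7987 genes with a mean of at least 10 TPM. Klf4 was below that mean, so 9 of the 10 were eligible. Irf8 had 126 TPM with Mdivi-1 and 160 TPM with vehicle, a log2 ratio of -0.34, the largest in size of the 10. Cebpb followed with 123 TPM with Mdivi-1 and 99.4 TPM with vehicle (0.30), then Klf4 with 9.35 and 7.58 TPM (0.27), Cebpa with 75.1 and 64.4 TPM (0.22) and Id1 with 32.6 and 28.0 TPM (0.21). Cebpe had 205 TPM with Mdivi-1 and 233 TPM with vehicle (-0.18). Id2 had 90.6 and 81.9 TPM (0.14), Cebpd 135 and 145 TPM (-0.11), Spi1 260.1 and 279 TPM (-0.10), and Gfi1 80.6 and 80.0144 TPM (0.01), with Mdivi-1 and vehicle in that order. Markers of other cells also stood at unlike levels in the HSCP libraries. Dendritic cell markers summed to 895 TPM with Mdivi-1 and 1435 TPM with vehicle. Megakaryocyte markers summed to 175 TPM with Mdivi-1 and 359 TPM with vehicle, eosinophil markers to 399 TPM with Mdivi-1 and 702 TPM with vehicle, and B cell markers to 49.8 TPM with Mdivi-1 and 80.1 TPM with vehicle. Neutrophil markers summed to 86624 TPM with Mdivi-1 and 95790.3 TPM with vehicle. Erythroid markers went the other way, at 5483 TPM with Mdivi-1 and 5147 TPM with vehicle. Most of the eosinophil sum was Prg2 (331 TPM with Mdivi-1 and 595 TPM with vehicle). Of eligible markers, 3 of 5 for megakaryocytes and 1 of 11 for neutrophils passed the fold, all lower. For dendritic cells (5 eligible), eosinophils (4) and B cells (1) 0 passed it. The part of these markers in the ratios of the factors was not tested.

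Whether the treatment difference was unlike in the populations was tested with an interaction term over all 6 libraries, in which the lone HSCP libraries are assumed to vary like the Ly6G+ ones. Of 12338 genes, limma called 0, 0% of those tested, while 1398 had an unadjusted p under 0.05. Of the 10 factors 0 were called, and Id2 and Cebpe had an unadjusted p under 0.05. For Id2 the Ly6G+ difference exceeded the HSCP difference by 0.84 with SE 0.09 (unadjusted p = 0.000211, limma adjusted p = 0.106). For Cebpe the excess was -0.55 with SE 0.20 (unadjusted p = 0.0418, limma adjusted p = 0.428). The 95% intervals of the remaining 8 factors held 0, and their widths do not show that the populations responded alike.

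Another comparison asks how Ly6G+ cells differ from HSCPs in these factors. Gfi1, Cebpa and Irf8 were lower in Ly6G+ cells, and Id2, Klf4, Spi1, Cebpd and Cebpb were higher, while Cebpe and Id1 did not pass. Thus 8 of 10 were called, near the background of 72.4% of 12338 genes (limma on all 6 libraries with treatment as a covariate). By direction, 5 of 10 were higher where 22.2% of all genes were, and 3 of 10 were lower where 50.3% of all genes were. Of all calls 30.6% were higher on TPM as deposited, against 49.1% with median-of-ratios and 46.5% with upper-quartile scaling. The median over the 10 was 0.42, against -0.35 over all genes. Median-of-ratios scaling moved the all-gene median to -0.02 and that of the 10 to 0.77, and no called factor lost its call or direction under either other scaling.

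Gfi1, the neutrophil repressor gene, had 14.8, 15.1, 16.8 and 20.5 TPM in Ly6G+ cells (2 Mdivi-1 libraries, then 2 vehicle libraries), against 80.6 and 80.0144 TPM in HSCPs (Mdivi-1, then vehicle). The populations were far apart, with 16.8 ± 2.62 TPM in Ly6G+ (SD, n = 4) and 80.3 ± 0.386 TPM in HSCPs (SD, n = 2). The log2 change was -2.20 with SE 0.11 (limma adjusted p = 1.44e-05), or -1.85 relative to the all-gene median. Its antisense neighbour A430072P03Rik was listed at 0.578 to 3.81 TPM in Ly6G+ and at 3.73 and 3.88 TPM in HSCPs. Cebpa fell to 25.2 ± 4.15 TPM in Ly6G+ (SD, n = 4), against 69.8 ± 7.59 TPM in HSCPs (SD, n = 2), a log2 change of -1.44, SE 0.15 (limma adjusted p = 0.000239). Irf8 averaged 85.5 ± 20.5 TPM in Ly6G+ and 143 ± 23.8 TPM in HSCPs, a log2 change of -0.75 (limma adjusted p = 0.000196), or -0.39 when scaled by median of ratios (limma adjusted p = 0.00167).

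Id2 averaged 236 ± 89.8 TPM in Ly6G+ and 86.3 ± 6.16 TPM in HSCPs, a log2 change of 1.36, SE 0.18 (limma adjusted p = 0.000691). The treatment arms of Ly6G+ give much of that spread. In vehicle libraries alone its log2 change was 0.94, and in Mdivi-1 libraries alone it was 1.78. Klf4 averaged 16.7 ± 1.94 TPM in Ly6G+ and 8.47 ± 1.25 TPM in HSCPs (log2 change 0.90, limma adjusted p = 0.000991). Spi1 averaged 471 ± 20.1 TPM and 269.5 ± 13.3 TPM (Ly6G+ and HSCP, log2 change 0.80, limma adjusted p = 6.49e-05). Cebpd averaged 235 ± 42.7 TPM and 140.042 ± 7.69 TPM (log2 change 0.73, limma adjusted p = 0.000737), and Cebpb 179 ± 39.9 TPM and 111 ± 16.7 TPM (log2 change 0.67, limma adjusted p = 0.0017), in the same order. For these 5 genes all 4 Ly6G+ libraries were above both HSCP libraries. The share of all genes separated in this way was not counted, while 22.2% of all genes were called higher in Ly6G+.

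Cebpe and Id1 overlapped between populations. Cebpe averaged 245 ± 74.1 TPM in Ly6G+ and 219 ± 19.6 TPM in HSCPs (log2 change 0.11, 95% interval -0.24 to 0.47, limma adjusted p = 0.505). In vehicle libraries alone its log2 change was 0.39 (limma adjusted p = 0.0307), and in Mdivi-1 libraries alone it was -0.16 (limma adjusted p = 0.337). Each of these fits sets 2 Ly6G+ libraries against 1 HSCP library, assumed to vary like that Ly6G+ pair. The difference between them is the interaction given above, which was not called for Cebpe. All 11 neutrophil markers were higher in Ly6G+, yet they summed to 86624 and 95790.3 TPM in HSCPs (Mdivi-1, then vehicle). Among them Camp had 8084 and 9477 TPM in HSCPs, against 9442 and 8723 TPM in Ly6G+ Mdivi-1 and 13601 and 15008 TPM in Ly6G+ vehicle. The part of neutrophil-stage cells in the Cebpe level of HSCPs was not tested. Id1 averaged 34.2 ± 2.48 TPM in Ly6G+ and 30.3 ± 3.25 TPM in HSCPs (log2 change 0.17, limma adjusted p = 0.165). Scaled by median of ratios, both were called higher in Ly6G+, Cebpe at 0.48 (limma adjusted p = 0.0154) and Id1 at 0.52 (limma adjusted p = 0.00176).

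**Figure D5:**
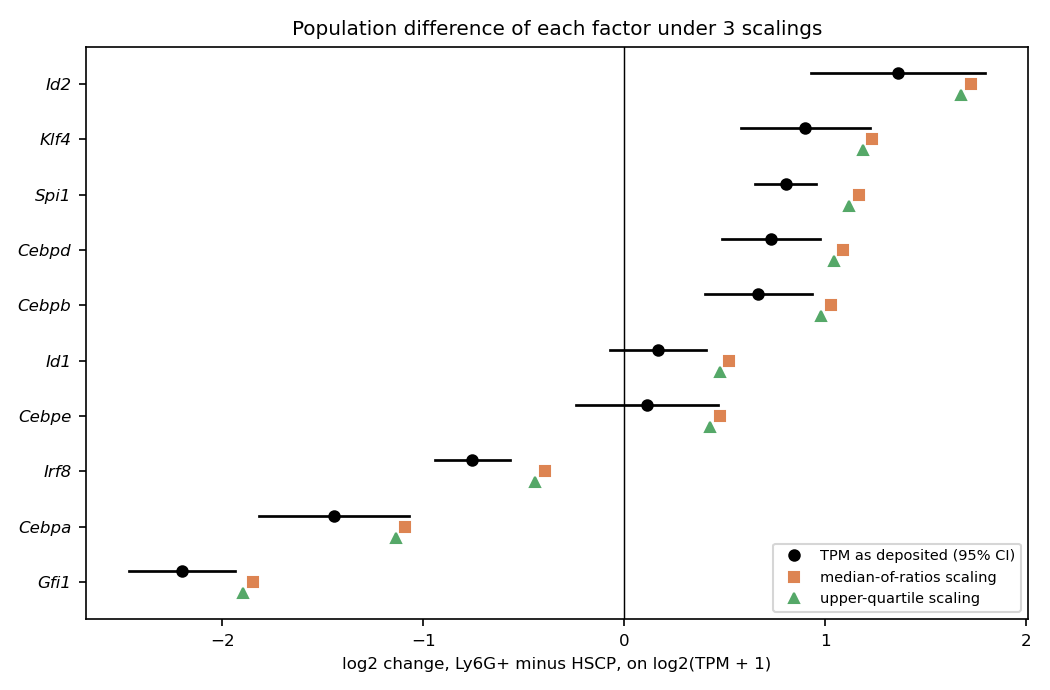
Log2 change, Ly6G+ minus HSCP, on log2(TPM + 1) for each factor on TPM as deposited (black circles with 95% intervals) and after median-of-ratios (squares) and upper-quartile scaling (triangles). Scaling shifts all 10 genes to the right, Gfi1, Cebpa and Irf8 stay below 0, and Cebpe and Id1 move from intervals that hold 0 to 0.48 and 0.52.

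The counts of relatives and targets called between populations stand against 72.4% of all genes called, 22.2% higher and 50.3% lower. Of 17 tested relatives 13 were higher in Ly6G+ and 2 lower. Klf6 (1.89), Klf2 (1.36) and Klf3 (1.25) led the higher, and Gfi1b (-1.81) and Spic (-1.18) were the 2 lower. Of 14 secondary granule genes 12 were higher and 0 lower, although Cebpe itself did not pass. The higher ones included Mmp8 (3.63), Mmp9 (3.14), Lyz2 (1.71, with 67.2% of its 31-base words unique) and Lcn2 (1.51). Of 10 early granule and receptor genes 5 were lower, namely Mpo (-3.14), Elane (-2.96), Prtn3 (-2.88), Ctsg (-2.64) and Ms4a3 (-2.14), and the 5 receptor genes Csf3r (2.03), Il6ra (0.86), Csf2ra (0.80), Csf2rb (0.68) and Csf1r (0.50) were higher. Among 26 partners 14 were higher, such as Mxd1 (2.65) and the retinoic acid receptor gene Rara (1.87), and 11 lower, such as Myc (-2.64) and Myb (-2.05). Of 8 E protein and BMP pathway genes 5 were lower, with Tcf3 at -1.18, Smad5 at -1.14, Tcf4 at -0.80, Tcf12 at -0.65 and Smad1 at -0.41, and 1, Bmpr2, was higher at 1.25. Of these the call of Smad1 was lost under both other scalings. Of 15 monocyte and dendritic genes 7 were higher, led by Cd14 (1.70) and the chemokine receptor gene Ccr2 (1.37), and 6 lower, led by H2-Ab1 (-1.18) and H2-Aa (-1.12). Scaled by median of ratios, 9 were higher and 3 lower. Of 7 GFI1-repressed genes Csf1 (0.96) and Csf1r (0.50) were higher, and Gfi1b (-1.81) and E2f6 (-1.39) lower. The ratio of Id2 to Gfi1 was 21.0251 and 20.9 in Ly6G+ Mdivi-1, 9.50 and 7.67 in Ly6G+ vehicle, 1.125 in HSCP Mdivi-1 and 1.02 in HSCP vehicle.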

How the data were processed

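RNA of 6 sorted mouse marrow samples was sequenced, and the authors deposited 1 table of 28987 genes, used here as TPM. Its name speaks of counts, but the values are not whole and each library sums to between 963243.1 and 979168.3. The submitters' processing notes list kallisto, bcl2fastq and CASAVA 1.8 beside the mm10 build. Which annotation, strand setting and gene summing were used is not given. TPM keeps no read totals, so no counting interval is given.

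Identifiers were matched to GENCODE M21 symbols (27458 matched, 1529 did not). Genes reaching 1 TPM in 2 or more fitted libraries entered limma (3.58.1, under R 4.3.3) as log2(TPM + 1), using a robust trended prior and Benjamini-Hochberg adjustment over all genes tested, at 0.05. The pseudocount understates changes of low genes. Residual degrees of freedom were 2 in Ly6G+, 3 between populations and 2 for the interaction. HSCP arms had no test. Scripts were tested on simulated data. No pair of libraries shared a value among genes at 1 TPM or more. The 10 factors and all lists were chosen with earlier results of these data known. From each other list up to 4 genes were named per comparison, first those past the test by size and then the most expressed, and counts of 5 or fewer in full. Alternatives covered pseudocount, filter, scaling, prior, covariate, replicate block and each library left out.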

Additional observations from a re-analysis of the deposited data

How the results depend on the processing

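In Ly6G+ cells, 789 genes were called with Mdivi-1, against 218 without an expression filter, 346 with a constant prior, 325 with the replicate block and 22 to 279 when a library was left out. The factors called numbered 3, against 0 to 3 with a library left out (0 without vehicle replicate 2, 1 without vehicle replicate 1 or Mdivi-1 replicate 2). The lone library left in an arm was assumed to vary like the other arm. The replicate numbers share only a number: differences between replicates 1 and 2 correlated at -0.031 across genes between the arms, and with the replicate block Id2 and Irf8 stayed under 0.05 while Cebpe was lost. Spi1 was at -0.013 as deposited, 0.052 and 0.048 with median-of-ratios and upper-quartile scaling, and -0.081 to 0.056 with a library left out (0.018 without vehicle replicate 2, 0.056 without Mdivi-1 replicate 2). Between populations Cebpe ranged from -0.163 (without the HSCP vehicle library) to 0.39 (without the HSCP Mdivi-1 library) with a library left out, and was -0.163 in Mdivi-1 libraries alone. Id1 passed without the HSCP Mdivi-1 library (0.334, limma adjusted p = 0.0367). The interaction gave 0 calls, 1 with a pseudocount of 0.1 or 0.5, and 0 to 2 with a library left out, a set of fits added after seeing the data. In HSCPs 74 genes passed the fold, against 289 with a mean of at least 1 TPM. Of the 110 refits of single factors in Ly6G+ 96 kept direction and side of the threshold, 142 of 150 between populations, 100 of 100 for the interaction, and 49 of 50 HSCP ratios moved by less than the SD between Ly6G+ replicates, since HSCPs have none of their own. The causes were not tested. TPM keeps no read totals, so what depth limits could not be judged.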

Other observations

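Of 16 tested factors of other blood lineages, 6 were lower and 0 higher in Ly6G+ cells with Mdivi-1 than with vehicle, and 10 did not pass. Over all genes tested 4.24% were lower and 2.46% higher. The list's median log2 change was -0.60, against -0.05 over all genes. The B cell factor gene Pax5 had 0.321 and 0.107 TPM with Mdivi-1, against 5.34 and 2.97 TPM with vehicle (log2 change -2.05, limma adjusted p = 0.0253), and Ebf1 had 0.348 and 0.298 TPM, against 2.54 and 2.76 TPM (-1.46, limma adjusted p = 0.0185). Gata2, a factor of progenitors, basophils and mast cells, had 3.88 and 3.17 TPM with Mdivi-1, against 11.9 and 13.4 TPM with vehicle (-1.59, limma adjusted p = 0.00775). Its partner gene Zfpm1 had 5.402 and 4.81 TPM with Mdivi-1, against 11.4 and 12.6 TPM with vehicle (-1.09, limma adjusted p = 0.0129). In the same libraries 10 basophil and mast cell markers (7 of 8 tested lower) summed to 384 and 396 TPM with Mdivi-1, against 681 and 697 TPM with vehicle, and 10 megakaryocyte markers (9 lower) to 126 and 109 TPM, against 281 and 279 TPM. Under both other scalings 6 of the 8 basophil and mast cell markers were lower and 1 higher: Cpa3 lost its call (limma adjusted p = 0.0517 and 0.0528) and Hdc was called higher (limma adjusted p = 0.0361 and 0.0392). Gata2 is itself among the basophil and mast cell markers, and Pax5 and Ebf1 are among the B cell markers counted further above. The lists are therefore not separate from these factors. The part of the markers in the values of the lineage factors was not tested.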
